A study of Mus musculus with 16 samples.

Results

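The vacuolar proton pump (V-ATPase) was measured through 8 subunit genes, Atp6v0c, Atp6v0d1, Atp6v0e2, Atp6v1a, Atp6v1d, Atp6v1e1, Atp6v1g2 and Atp6v1h, of the 770 genes on a neuropathology panel read by digital transcript counting (nCounter). These 8 genes were taken by name, with earlier results of these data known, and all 8 passed the filter of a mean of at least 20 normalized counts. They fall into 3 subunits of the membrane domain V0 and 5 of the cytosolic domain V1. Atp6v0e2 and Atp6v1g2 are isoforms enriched in brain and are called neuronal here, and the other 6 are common to most tissues. RNA came from the whole brain of 16 female mice aged 6 months, with 4 wild type animals, 4 with a Grn knockout, 4 with a Trem2 knockout and 4 with a knockout of both genes. The study compared each knockout with wild type. Grn encodes progranulin, a secreted and lysosomal protein, and Trem2 a receptor of microglia. The sources used here give no mouse strain, knockout allele, cartridge or run day.

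The pump couples ATP hydrolysis to proton transport into lysosomes, endosomes and synaptic vesicles. In V1 a ring of catalytic A and B subunits splits ATP and turns a central stalk. That stalk rotates the proteolipid ring of V0, which carries protons across the membrane, while peripheral stalks hold the complex still. In neurons the proton gradient also powers the loading of transmitter into synaptic vesicles, and reversible assembly of V1 on V0 sets pump activity.

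Sequence around a listed transcript start is shown for members whose transcripts varied together between animals (Atp6v0d1, Atp6v1a and Atp6v1d). It is also shown for Atp6v0e2, the member with the largest estimate against wild type. The sequences are from RefSeq on build GRCm38.p6, run 5′ to 3′ on the gene's strand and cover 150 bases before to 20 after a listed transcript start. Capitals mark TCACGTGA, an 8-base motif of the E-box type that includes CACGTG. Motifs of this type are bound by the lysosomal gene regulator TFEB and by other basic helix-loop-helix factors.
Atp6v0d1 (chr8:105566045-105566214, minus strand): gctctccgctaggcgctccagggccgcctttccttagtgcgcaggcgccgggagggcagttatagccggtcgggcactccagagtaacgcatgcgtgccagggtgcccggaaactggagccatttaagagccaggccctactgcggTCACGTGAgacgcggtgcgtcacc
Atp6v1a (chr16:44139240-44139409, minus strand): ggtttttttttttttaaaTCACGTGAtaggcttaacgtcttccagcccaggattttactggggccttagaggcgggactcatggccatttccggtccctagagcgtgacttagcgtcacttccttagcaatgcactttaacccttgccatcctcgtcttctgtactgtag
Atp6v1d (chr12:78861619-78861788, minus strand): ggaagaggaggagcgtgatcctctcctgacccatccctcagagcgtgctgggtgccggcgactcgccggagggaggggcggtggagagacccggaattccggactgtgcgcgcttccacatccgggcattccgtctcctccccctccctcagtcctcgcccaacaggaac
Atp6v0e2 (chr6:48537419-48537588, plus strand): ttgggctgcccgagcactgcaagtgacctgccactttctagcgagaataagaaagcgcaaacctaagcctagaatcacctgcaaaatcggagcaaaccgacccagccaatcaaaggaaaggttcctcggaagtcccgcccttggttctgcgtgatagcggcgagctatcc
Windows of 250 bases before to 50 after the start were listed for 7 of the 8 members, with 10 windows in all; Atp6v1h had no entry. The motif was searched on both strands, which read the same because it is a palindrome. It was found in 2 members, beginning 4 bases before the listed start of Atp6v0d1 and 132 bases before that of Atp6v1a. The windows of Atp6v1a and Atp6v1d lay wholly inside their genes, whose listed 5′ ends are at 44139702 and 78862008. For these genes the start used is therefore an internal one, and the sequence shown is not upstream of the gene. Neither it nor CACGTG was found in the windows of the other 5 members. Of all 32851 mouse windows of this length, 0.974% held TCACGTGA and 7.15% held CACGTG, a count that includes the longer motif. Among the 572 panel genes with a window, 2.80% held TCACGTGA. These matches describe the letters only.

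Every animal carried its labelled genotype at the RNA level. Grn averaged 617 ± 45.4 normalized counts in wild type and 13.6 ± 4.72 in the Grn knockout, and Trem2 averaged 143 ± 13.2 in wild type and 17.3 ± 12.4 among Trem2 knockouts (SD, n = 4). The deposited values were whole counts scaled to 10 reference genes. Between 477113 and 767742 panel gene counts were recovered per animal. All 8 subunits were counted well above background, from 1567 counts of Atp6v1g2 in its lowest animal to 14228 of Atp6v0c in its highest, so counting error alone would give a coefficient of variation of 0.907% to 2.07% per gene. No marker gene of neurons, microglia, astrocytes, oligodendrocytes or endothelium read 0 in every animal of a genotype. This does not show their presence, because the negative control probes averaged 9.1 to 19.9 counts per animal. No marker of choroid plexus was on the panel.

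None of the 8 subunits passed the test in any of 9 comparisons between genotypes. With limma and Benjamini-Hochberg adjustment over 708 genes, 0 of 8 members had an adjusted p under 0.05, and voom, a limma variant for counts, called 0 as well. Over the whole panel limma called 0.565% of genes in the Grn knockout against wild type, 0.141% in the Trem2 knockout, 0.282% in the double knockout, 0.282% in the double against the Grn knockout, 0.424% in the double against the Trem2 knockout and 0.847% in the Grn against the Trem2 knockout. It called 0% for the interaction, 0.706% for Grn loss averaged over both Trem2 states and 0.282% for Trem2 loss averaged over both Grn states. At an unadjusted p under 0.05 the members gave 1 call in all, Atp6v0e2 in the interaction, beside 3.39% of all genes there and 4.66% to 8.05% in the other 8 comparisons. In the 8 comparisons other than the interaction, the 95% confidence interval of every member lay within 1.5-fold in either direction. Each interval was taken alone and holds on the scale of the reference genes only. With positive control scaling the median over all genes shifted by 0.36 on the log2 scale in the double knockout against wild type. In bulk tissue, fewer cells that express a gene and less of its RNA per cell cannot be told apart. Nothing in the labels says whether the 4 animals of a genotype shared a litter or were processed together.

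**Figure D1:**
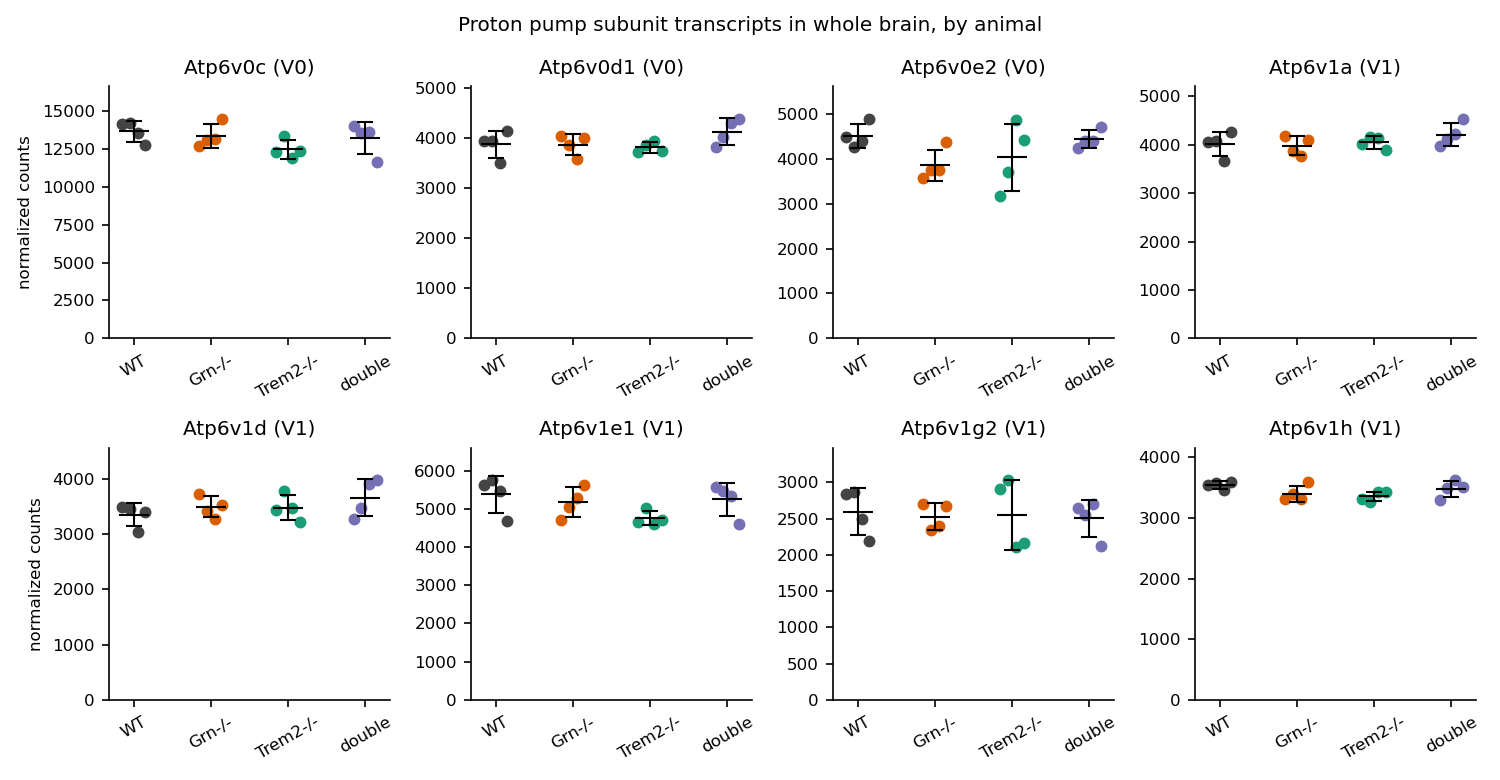
Normalized counts (vertical axis, from 0) of each subunit transcript in each of 16 animals, by genotype; each point is 1 animal, and the bar and whiskers are the mean and SD of 4 animals. The genotypes overlap for every subunit except Atp6v1h, where the 4 Trem2 knockout animals (3269 to 3426) lie below the 4 wild type animals (3464 to 3599).

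Atp6v0c encodes the proteolipid that forms most of the rotating V0 ring. It measured 14118, 14217, 13562 and 12714 normalized counts in the wild type animals and 12673, 13063, 13110.4 and 14458 in the Grn knockout. It measured 12298, 13339, 11869 and 12335 in the Trem2 knockout and 13994, 13516, 13590.5 and 11629.8 in the double knockout. The highest single animal was a Grn knockout and the lowest a double knockout, and the ranges of all 4 genotypes overlapped. The means were 13653 ± 689 in wild type, 13326 ± 779.6 among Grn knockouts, 12460.4 ± 623 among Trem2 knockouts and 13182.5 ± 1056 among double knockouts (SD, n = 4). The largest log2 difference from wild type was -0.13 in the Trem2 knockout (SE 0.07, 95% interval -0.28 to 0.02, limma adjusted p = 0.804), less than the spread between animals could separate.

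Atp6v0d1 encodes subunit d, which couples the V0 ring to the central stalk. Its means lay within a narrow band, at 3882 ± 272 normalized counts in wild type, 3875 ± 206 among Grn knockouts, 3821 ± 109 among Trem2 knockouts and 4136 ± 264 among double knockouts (SD, n = 4). The double knockout held both the highest animal, at 4389, and animals inside the wild type range of 3500 to 4145. Its log2 difference from wild type was 0.09 (SE 0.07, 95% interval -0.05 to 0.24, limma adjusted p = 0.716).

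Atp6v0e2 encodes the brain-enriched isoform of the small V0 subunit e. It measured 4479, 4258, 4395 and 4885 normalized counts in wild type and 3575, 3747, 3744 and 4363 in the Grn knockout. Of the Grn knockout animals, 3 lay below every wild type animal and the fourth inside the wild type range. The Trem2 knockout animals measured 3164, 3700.1, 4861 and 4405, and the double knockout animals 4234, 4396, 4393 and 4713. The Trem2 knockout was split, with 2 animals under and 2 inside the wild type range, whereas the double knockout nearly coincided with wild type. The means were 4504 ± 269.8, 3857 ± 347, 4032 ± 750.5 and 4434 ± 201 in wild type, Grn knockout, Trem2 knockout and double knockout (SD, n = 4). The log2 difference from wild type was -0.23 in the Grn knockout (SE 0.11, 95% interval -0.46 to 0.01, limma adjusted p = 0.885). It was -0.18 in the Trem2 knockout (95% interval -0.41 to 0.06, limma adjusted p = 0.806) and -0.02 in the double knockout (95% interval -0.26 to 0.21, limma adjusted p = 0.982).

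The interaction asks whether the double knockout differs from the Grn knockout by another amount than the Trem2 knockout differs from wild type. For Atp6v0e2 the interaction was 0.38 on the log2 scale (SE 0.16, 95% interval 0.05 to 0.71), with an unadjusted p of 0.0279 and a limma adjusted p of 0.955. It ranked 13 of 708 genes by p, 24 of which had an unadjusted p under 0.05. Estimates of the other 7 members were smaller, from 0.01 for Atp6v1d to 0.20 for Atp6v1e1 (limma adjusted p = 0.970 or more). On the deposited scale all 8 estimates were above 0, with a median of 0.11, beside 422 of 708 genes above 0 and a median of 0.03 over all genes. The shared sign depended on the scaling: with positive control scaling the median over all genes was -0.21. Over the alternative runs the lowest estimate ran from -0.23 for Atp6v1d to 0.14 for Atp6v0e2, and was above 0 for Atp6v0e2 only. Against the median of all genes, 6 of 8 members lay above on the deposited scale, with each animal recentred on its own median and with positive control scaling, and 5 of 8 with quantile normalization.

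Atp6v1a encodes the catalytic A subunit, where ATP is split. Its means were 4019 ± 248 normalized counts in wild type, 3983 ± 188 among Grn knockouts, 4047 ± 127 among Trem2 knockouts and 4211 ± 236 among double knockouts (SD, n = 4). Animals of all genotypes overlapped between 3671 and 4533, and no log2 difference from wild type exceeded 0.07 (SE 0.06, limma adjusted p = 0.781, double knockout). For the catalytic subunit the 3 intervals against wild type together ran from -0.15 to 0.20.

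Atp6v1d encodes subunit D, the rotor of the central stalk. It averaged 3352 ± 207 normalized counts in wild type, 3494 ± 189.7 among Grn knockouts, 3479.6 ± 227 among Trem2 knockouts and 3660.2 ± 333 among double knockouts (SD, n = 4). It was the only member with a mean above wild type in all 3 knockouts. The double knockout animals measured 3279.8, 3484, 3902 and 3975, so that 2 lay above the wild type range of 3047 to 3501 and 2 inside it. The log2 difference was 0.12 (SE 0.08, 95% interval -0.04 to 0.29, limma adjusted p = 0.713).

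Atp6v1e1 encodes subunit E of the peripheral stalk in its widely expressed form. It measured 5628, 5741, 5462 and 4681 normalized counts in wild type and 4701, 5058, 5283 and 5632 in the Grn knockout. It measured 4665, 5014, 4601 and 4717 among Trem2 knockouts and 5571, 5468, 5326 and 4613 among double knockouts. The Trem2 knockout lay at the low end, but 1 wild type, 1 Grn knockout and 1 double knockout animal were as low. The means were 5378 ± 479, 5168 ± 391, 4749 ± 183 and 5245 ± 433 in the same order (SD, n = 4). The log2 difference of the Trem2 knockout from wild type was -0.18 (SE 0.08, 95% interval -0.35 to 0.00), with an unadjusted p of 0.0504 and a limma adjusted p of 0.804.

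Atp6v1g2 encodes the neuronal isoform of subunit G, the partner of subunit E in the peripheral stalk. It measured 2843, 2861, 2499 and 2190.05 normalized counts in wild type and 2695, 2347, 2397 and 2676 in the Grn knockout. It measured 2915, 3027, 2102 and 2159 among Trem2 knockouts and 2642, 2547, 2701 and 2129 among double knockouts. The spread within genotypes exceeded any difference between them, and the highest and lowest of the 16 animals were both Trem2 knockouts. The means were 2598 ± 319, 2529 ± 182, 2551 ± 488 and 2505 ± 259 (SD, n = 4), and no log2 difference from wild type was farther from 0 than -0.05 (SE 0.13, limma adjusted p = 0.928, double knockout).

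Atp6v1h encodes the regulatory subunit H, which is needed for activity and keeps free V1 from splitting ATP. It measured 3543, 3581, 3464 and 3599 normalized counts across wild type and 3315, 3269, 3426 and 3423 in the Trem2 knockout. All 4 Trem2 knockout animals lay below all 4 wild type animals, the nearest being 3426 and 3464. The Grn knockout animals measured 3309, 3392, 3315 and 3589, and the double knockout animals 3305, 3496, 3621 and 3517, both reaching into the wild type range. The log2 difference of the Trem2 knockout from wild type was -0.08 (SE 0.05, 95% interval -0.19 to 0.03, limma adjusted p = 0.806). Groups without overlap were seen for 3.39% of all genes in the same pair of genotypes, and Atp6v1h was the 1 member of 8. In the other 5 pairs 0 members were separated, beside 3.39% of genes for the Grn knockout and wild type, 5.37% for the double knockout and wild type, 2.97% for both single knockouts, 4.38% for the double and Grn knockouts and 3.95% for the double and Trem2 knockouts.

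**Figure D2:**
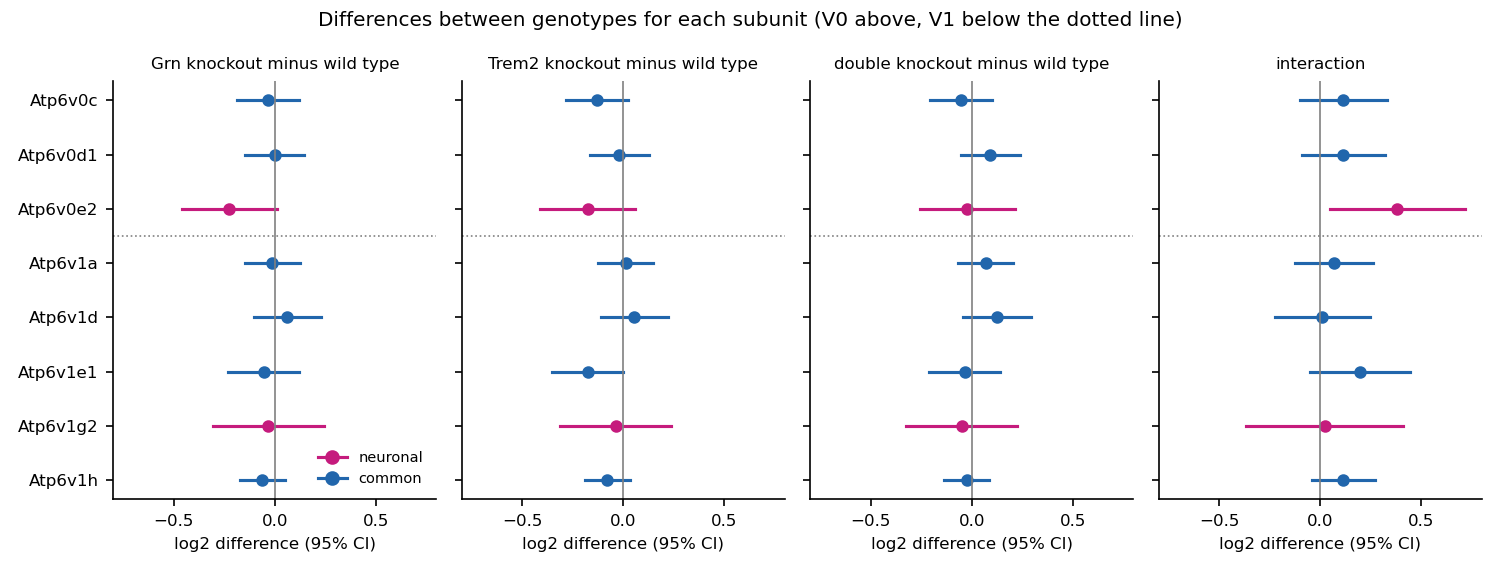
Log2 difference (horizontal axis) of each subunit for each knockout against wild type and for the interaction, with points for the limma estimate and lines for its 95% confidence interval; neuronal isoforms are in magenta and common subunits in blue. Every interval against wild type includes 0, and in the interaction only that of Atp6v0e2 (0.05 to 0.71) does not.

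V0 and V1 were compared through the mean log2 value of the 3 V0 members minus that of the 5 V1 members in each animal, with the wild type mean set to 0. The Grn knockout averaged -0.07 ± 0.04, the Trem2 knockout -0.06 ± 0.14 and the double knockout -0.01 ± 0.02, beside a wild type SD of 0.07 (n = 4). The wild type animals ran from -0.06 to 0.10, so the genotypes overlapped and no shift between the domains stood out from the spread between animals. In the Trem2 knockout, 2 animals were at -0.22 and -0.15 and 2 at 0.07 and 0.04, the same animals that were split for Atp6v0e2. The score includes Atp6v0e2 and subtracts Atp6v1g2, which was split the opposite way in these animals, so this is not a separate observation. The median log2 difference from wild type was -0.04 for V0 and -0.03 for V1 in the Grn knockout, -0.13 and -0.04 among Trem2 knockouts and -0.02 and -0.03 among double knockouts, beside medians of -0.02, -0.02 and 0.00 over all genes.

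The neuronal isoforms were set against the common subunits in the same way, as the mean of Atp6v0e2 and Atp6v1g2 minus the mean of the other 6. The Grn knockout averaged -0.11 ± 0.05 on the log2 scale, with animals from -0.16 to -0.05. All 4 lay below the 4 wild type animals, whose values ran from -0.05 to 0.03, but narrowly, the nearest being -0.0511 and -0.0485. For single genes, 3.39% of all tested had no overlap between these genotypes. The score averages 2 isoforms that varied in opposite directions between animals (r = -0.71), each of which overlapped wild type alone. The Trem2 knockout averaged -0.05 ± 0.03 and the double knockout -0.06 ± 0.05, both overlapping wild type. Both neuronal members had estimates below 0 in each knockout, as did the common subunits Atp6v0c, Atp6v1e1 and Atp6v1h. Of 708 genes, 292, 315 and 349 had estimates above 0 in the Grn, Trem2 and double knockouts against wild type. The neuronal members did not contribute alike to the score: in the Grn knockout the log2 difference was -0.23 for Atp6v0e2 and -0.03 for Atp6v1g2. No test was run on these combined values, because the members were chosen with earlier results of these data known.

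**Figure D3:**
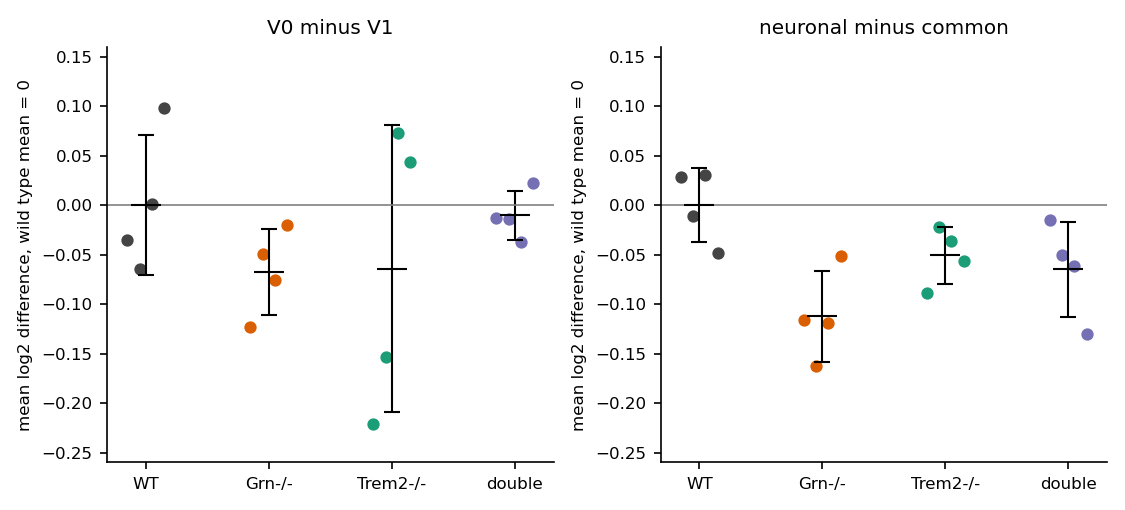
Mean log2 value of V0 minus V1 subunits (left) and of neuronal minus common subunits (right) in each animal (points; vertical axis, wild type mean set to 0), with the mean and SD of 4 animals. V0 minus V1 overlaps between genotypes, and the Grn knockout animals (-0.16 to -0.05) lie at or under the lower end of the wild type animals (-0.05 to 0.03) for neuronal minus common.

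Within genotypes the subunits did not vary as 1 unit. Over the 16 animals, with each genotype's mean removed from the log2 values, Atp6v0d1 and Atp6v1a had a Pearson r of 0.94 (Spearman's rho 0.91, r without the 2 animals farthest out 0.89). For each pair, those 2 animals were the farthest from the median of the gene listed first among the members. They can therefore differ between pairs. Atp6v1d joined this pair, with r of 0.86 with Atp6v1a and 0.85 with Atp6v0d1 (0.81 and 0.75 without the 2 farthest animals). A second set held Atp6v0c and Atp6v1e1, with r of 0.93 (rho 0.94, r without the 2 farthest animals 0.90), and Atp6v1g2. The r of Atp6v1g2 was 0.72 with Atp6v0c (0.70 without the 2 farthest animals) and 0.60 with Atp6v1e1 (0.36 without the 2 farthest for that pair). Each set held members of both V0 and V1. The first held common subunits only, the second 1 neuronal isoform and 2 common subunits, and Atp6v0e2 was in neither. Between them r was low or negative, as for Atp6v1a with Atp6v1e1, at -0.51. Atp6v1h had an r of 0.61 with Atp6v0d1 (0.42 without the 2 farthest animals) and of 0.60 with Atp6v0e2 (0.72 without the 2 farthest for that pair). Quantile normalization changed this picture: r was 0.37 for Atp6v0d1 with Atp6v1a, 0.67 for Atp6v0c with Atp6v1e1 and 0.12 for Atp6v0c with Atp6v1g2, and 12 of the 28 member pairs changed sign.

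The neuronal isoforms varied in opposite directions, with an r of -0.71 for Atp6v0e2 and Atp6v1g2 (rho -0.67, r without the 2 farthest animals -0.60, n = 16). The Trem2 knockout animals with 3164 and 3700.1 normalized counts of Atp6v0e2 had 2915 and 3027 of Atp6v1g2, and those with 4861 and 4405 had 2102 and 2159. Without regard to genotype, the 3 animals highest in Atp6v0e2 held 3 of the 4 lowest values of Atp6v1g2. In all, 8 of 28 member pairs had an r above 0.5, or 28.6%, beside 11.6% of the 250278 pairs of tested genes. By domain, 6 of 15 pairs of a V0 with a V1 member and 2 of 13 pairs within a domain were above 0.5. These correlations describe values that share 1 scaling factor and 1 library per animal. They hold on the scale of the reference genes: when animals were scaled to the positive controls instead, r was at least 0.78 for all 28 pairs, and that of the neuronal isoforms was 0.78.

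**Figure D4:**
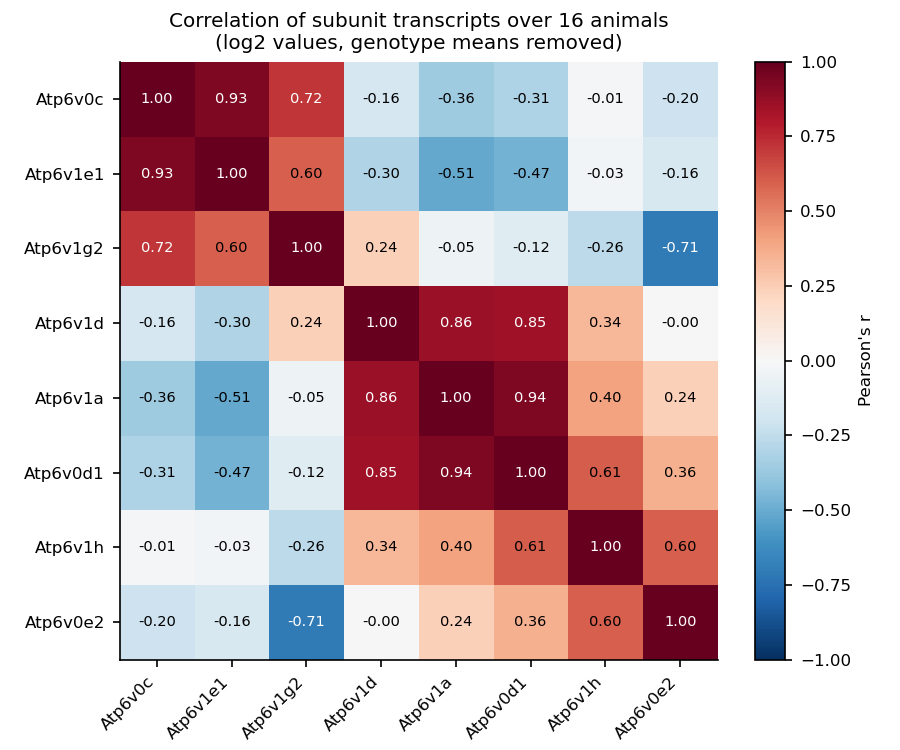
Pearson's r of log2 values between subunit transcripts over 16 animals after removal of genotype means (red, positive; blue, negative). Atp6v0c, Atp6v1e1 and Atp6v1g2 form 1 block (0.60 to 0.93), Atp6v1d, Atp6v1a and Atp6v0d1 another (0.85 to 0.94), and Atp6v0e2 with Atp6v1g2 is at -0.71.

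**Figure D5:**
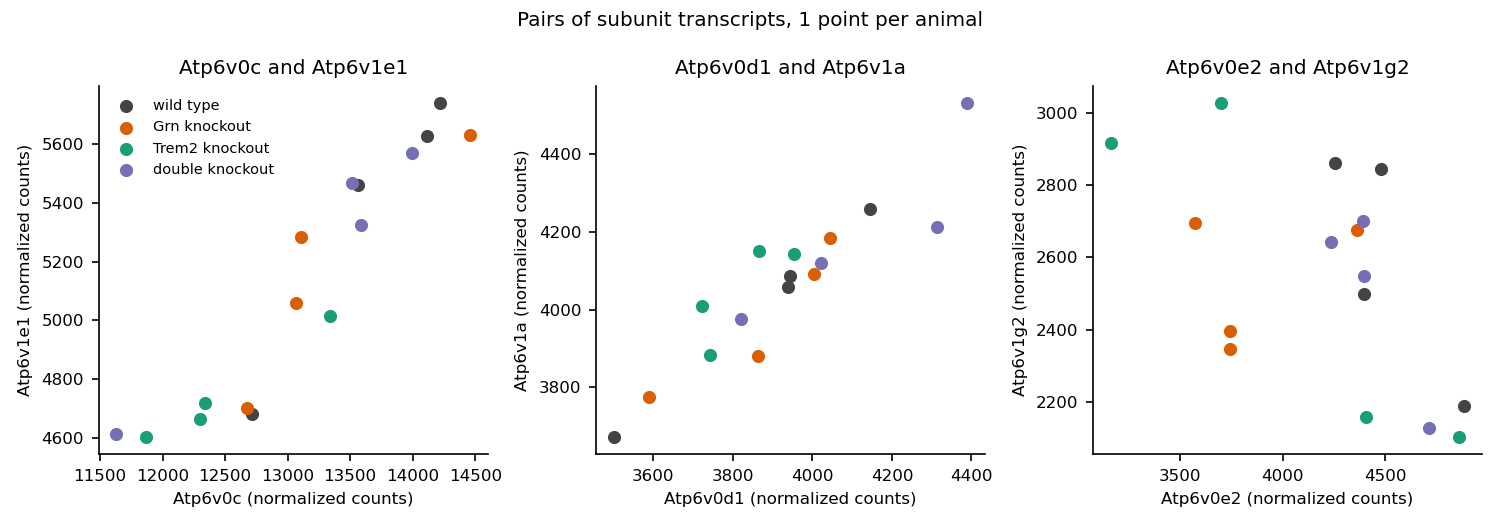
Normalized counts of 3 pairs of subunits, with 1 point per animal coloured by genotype; axes do not start at 0. Atp6v0c and Atp6v1e1, and Atp6v0d1 and Atp6v1a, lie along a line that animals of all genotypes share, while animals with the most Atp6v0e2 have little Atp6v1g2.

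Measures of assay and tissue moved with these sets to different degrees. The sum of the positive control probes, which are spiked RNA, had an r of 0.69 with Atp6v0c, 0.69 with Atp6v1e1 and 0.68 with Atp6v1g2 over the 16 animals, and of 0.48, 0.38 and 0.52 without the 2 animals farthest out. For each reading these were the 2 animals farthest from its median, so they can differ between readings. Of all tested genes, 9.75% had an r at least as far from 0 as that of Atp6v0c. Positive control sums averaged 36423 in wild type, 27302 in Grn knockout, 28731 in Trem2 knockout and 27765 in double knockout animals. The log2 differences from wild type in the Grn, Trem2 and double knockouts were -0.04, -0.13 and -0.05 for Atp6v0c and -0.06, -0.18 and -0.04 for Atp6v1e1. For Atp6v1g2 they were -0.03, -0.04 and -0.05. The part of the sums in these values was not tested. For Atp6v0d1, Atp6v1a and Atp6v1d the r with the mean of the microglia markers was 0.53, 0.54 and 0.52, and 0.64, 0.63 and 0.61 without the 2 animals farthest out. That mean includes Trem2, which was near background in Trem2 knockout (8.69 to 35.4) and double knockout animals (5.02 to 20.4). Noise of Trem2 at that level enters these r, and r with Trem2 left out was not computed. With the astrocyte markers the r of the same 3 members was -0.51, -0.43 and -0.49, and -0.28, -0.23 and -0.30 without the 2 animals farthest out in that reading. With the endothelial markers it was -0.19, -0.12 and -0.16, but -0.71, -0.64 and -0.73 without 2 animals. With the neuron markers it was 0.03, 0.04 and -0.04, and 0.33, 0.22 and 0.31 without 2 animals. The mean of the negative control probes had an r of -0.32, -0.42 and -0.45 with the same 3 members, and -0.57, -0.63 and -0.75 without 2 animals. With the oligodendrocyte markers their r was -0.18, -0.26 and -0.40, and -0.20, -0.26 and -0.41 without 2 animals. Over all tested genes the r with the negative controls had quartiles of -0.22 and 0.19, and none was computed for the marker lists. These 3 members had r of 0.85 to 0.94 with each other, so their r with a reading are not separate observations. Leaving out 2 animals changed the size of some r, and the part of each reading was not tested.

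For each member the 2 most alike of 700 other tested genes were named by r over the same 16 animals. As the highest of 700, these r are raised by the selection. Atp6v0d1 was most like Slc4a10, a bicarbonate transporter of neurons (r = 0.97), and Pgam1, a glycolytic enzyme (r = 0.95). Atp6v1a was most like Negr1, a neuronal adhesion molecule (r = 0.94), and Snap91, a clathrin adaptor of synaptic vesicle recycling (r = 0.93), and Atp6v1d like Gnai1, a G protein subunit (r = 0.86), and again Negr1 (r = 0.84). Atp6v0c and Atp6v1e1 shared both of their nearest genes, Cul3, the scaffold of a ubiquitin ligase (r = 0.88 and 0.82), and Grin1, a subunit of the NMDA receptor (r = 0.80 and 0.81). Atp6v0e2 was most like Bcas2, a splicing factor (r = 0.95), and the dendritic protein gene Map2 (r = 0.87). Atp6v1g2 was most like Rad23b, a proteasome shuttle factor (r = 0.93), and the chaperone gene Dnaja2 (r = 0.92), and Atp6v1h like Clu, which encodes clusterin (r = 0.75), and Nol3 (r = 0.73). No gene was shared by Atp6v0e2 and Atp6v1g2. Without the 2 animals farthest out for the member, r fell to 0.62 and 0.46 for Atp6v1h with Clu and Nol3. It fell to 0.64 and 0.70 for Atp6v1e1 with Cul3 and Grin1, and was 0.78 to 0.95 for the rest.

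The 6 common members varied less than the median panel gene. Over the 16 animals the coefficient of variation was 3.5% for Atp6v1h, 5.04% for Atp6v1a, 6.00% for Atp6v0d1, 6.45% for Atp6v0c, 7.07% for Atp6v1d and 8.25% for Atp6v1e1, beside a median of 11.2% for the 708 genes. The neuronal isoforms were the most variable members, at 11.6% for Atp6v0e2 and 11.7% for Atp6v1g2, close to the median gene. Of all tested genes 0.141% varied less than Atp6v1h. Neither this rank nor the median was matched for level. Counting error alone would give 0.907% for Atp6v0c to 1.77% for Atp6v1h among the common members. It is larger for tested genes with far fewer counts, such as Tcirg1. Whether the members varied less than genes of similar level was not tested.

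The panel held 2 other pump genes. Atp6v0e, the common isoform of subunit e, averaged 130 ± 6.52 normalized counts in wild type, 132 ± 20.6 among Grn knockouts, 135 ± 22.1 among Trem2 knockouts and 131 ± 18.1 among double knockouts (SD, n = 4). Its window also held TCACGTGA, beginning 2 bases after the start. Its log2 difference from wild type in the Grn knockout was 0.02, beside -0.23 for Atp6v0e2. Tcirg1, the isoform of subunit a found in osteoclasts and immune cells, measured 41.7, 48.0, 39.6 and 43.8 in wild type and 59.0, 48.7, 55.5 and 46.1 in the Grn knockout, overlapping at the low end. Its log2 difference was 0.27 (SE 0.12, unadjusted p = 0.0466, limma adjusted p = 0.880), and its counts lay close to the background threshold of 16.3 to 39.1 per animal.

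Other genes of the lysosome were compared with the members through lists whose counts are given over tested genes. Of 9 lysosomal hydrolases and cofactors, 0 passed the limma test against wild type in any knockout, with 7 estimates above 0 in the Grn knockout (median 0.09) and 8 below 0 in the Trem2 knockout (median -0.11). Of 8 lysosomal membrane and storage disease genes, 1 passed against wild type, Cd68, a lysosomal membrane protein of phagocytes that rose by 0.79 on the log2 scale in the Grn knockout (limma adjusted p = 0.00194). The pump members' median in the same comparison was -0.03. Of 10 autophagy and mTORC1 genes and 22 synaptic vesicle genes 0 passed against wild type, and their medians in the Grn knockout were 0.03 and -0.02.

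Marker genes of several cell types differed in level between genotypes. Of 10 tested microglia markers, all 10 estimates were above 0 in the Grn knockout and 2 passed, C1qa (0.65, limma adjusted p = 0.0144) and C1qb (0.52, limma adjusted p = 0.00353), both complement genes. The summed level of the 10 measured microglia markers other than Trem2 ran from 3221 to 3501 normalized counts in wild type and from 3688 to 4628 in the Grn knockout, without overlap. It ran from 2593 to 3258 with Trem2 lost and from 3251 to 3711 with both genes lost, each overlapping wild type. Summed endothelial markers ran from 1007 to 1220 in wild type and from 829 to 971 in the double knockout, where 7 of 7 estimates were below 0 (median -0.30) and 0 passed the limma test. Of 10 oligodendrocyte markers, 10 estimates were below 0 in the double knockout (median -0.14) and 0 passed. Their summed level overlapped, from 6887 to 9054 in wild type and from 6121 to 7791 in the double knockout. Summed neuron markers overlapped in all genotypes, from 28523 to 30712 in wild type and from 27777 to 29746 in the Grn knockout. The part of these markers in the members' values was not tested.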

How the data were processed

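RNA of whole brain was measured on an nCounter neuropathology panel. Each probe has 1 signal value per animal in the deposited table. In it at least 99.74% of gene values per animal were whole multiples of 1 step within 0.0075 counts, and the geometric mean of 10 reference genes was 321.56 in every animal, which makes the deposited signal a count scaled to those genes. The sources used here name no software or background correction. This scaling would hide a change that the reference genes share.

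Genes with a mean of at least 20 (708 of 770) entered 1 linear model on log2(value + 1) with limma 3.58.1 and R 4.3.3 (lmFit and eBayes, 4 group means, 12 residual degrees of freedom). Tests were two-sided, and p-values of each comparison were adjusted by Benjamini-Hochberg over the 708 genes, with a threshold of 0.05. A fold change on this scale slightly understates that of low genes. The 24 pairs of animals within genotypes all exceeded counting noise, with chi-square over degrees of freedom from 3.32 to 15.0, and each animal counted once. Replicates are animals with a number of their own. P-values measure the spread between these animals. Levels were compared between genotypes for 1 gene, never between probes. All 770 symbols were found in the RefSeq table of GRCm38.p6, 7 of them as synonyms. Tables and promoter windows were handled in Python 3.11.15. The fit was tested on simulated data.

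The members, gene lists and tests were chosen with earlier results of these data known. All 8 members are named. Of each other list, those that passed and the gene with the smallest p were eligible to be named, and the text gives a part of them.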

Additional observations from a re-analysis of the deposited data

How the results depend on the processing

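No member passed the threshold under any alternative run. The planned settings were pseudocounts of 10 and 0.1, no filter, a minimum mean of 50, quantile normalization, recentring on the median, positive control scaling, trended robust variance, animal weights, fits of only the groups compared, and voom on recovered counts. Of 768 member estimates, 708 kept their direction and 60 fell on the other side of 0 (smallest limma adjusted p = 0.495). With 1 animal left out, 1078 of 1152 kept it and 74 did not (smallest limma adjusted p = 0.489). With positive control scaling the median over all genes shifted by 0.35, 0.26 and 0.36 for the Grn, Trem2 and double knockouts against wild type, and the members then had to be read against that median. Under quantile normalization neuronal minus common in the Trem2 knockout was -0.11, and the cause was not tested. V0 minus V1 in the double knockout turned from -0.01 to 0.03 with quantile normalization and to 0.02 without wild type replicate 4. The correlations of member pairs, settings added after the data were seen, stayed within their nominal 95% intervals for 28 of 28 pairs with recentring and 16 of 28 with quantile normalization. These intervals took the 16 animals as independent values although genotype means had been removed, which makes them too narrow. With quantile normalization 12 of 28 changed sign, and r was -0.55 for Atp6v0e2 with Atp6v1g2. With the positive controls the r of that pair was 0.78. Panel calls ranged from 1 to 5 (Grn knockout against wild type), 1 to 2 (Trem2), 2 to 8 (double, highest with quantile normalization), 1 to 6 (double against Grn, highest with animal weights), 2 to 3 (double against Trem2), 3 to 7 (Grn against Trem2), 0 to 1 (interaction), 3 to 7 (Grn loss) and 2 to 4 (Trem2 loss); leaving out 1 animal gave 2 to 6 for the double knockout and 6 to 10 for Grn against Trem2. The planned count test of edgeR was not run, because the deposited unit is a scaled signal and not a count; voom used counts recovered by division, of which at least 99.74% per animal came out whole. No paired analysis was possible because replicate numbers were given in accession order and link no animal to another. With 4 animals a genotype, the intervals and not counting depth set the limit.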
